A study of Mus musculus with 2 samples.

Results

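LβT2 is an immortalised line from the mouse pituitary and serves as a model of the gonadotrope, the pituitary cell that makes the gonadotropins. The cells described here are those given vehicle only, and they were taken as every cell whose column in the deposited table carries the vehicle prefix. They number 1992 of the 3881 cells in the series. The vehicle cells came from passage 15, were plated at 350000 cells per well for 48 h and received vehicle for 40 min. The other library of the series, given 2 nM GnRH for 40 min, is not compared with them here. About 8000 cells were loaded per library and viability was above 90%. LβT2 derives from a pituitary tumour of transgenic mice, in which control sequence of the rat LHβ gene drove a viral oncogene, the T-antigen of SV40. All 1992 cells came from 1 library, so cells are not replicates, no test was made and the spread between cultures is unknown.

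Gonadotropes store peptide hormones in dense-core granules and release them when GnRH reaches its receptor. They also produce inhibin and activin subunits, which form dimers that act on follicle-stimulating hormone synthesis, and granins, which are acidic proteins of the secretory granule. A tumour line additionally has to divide, so genes of ribosome production, DNA replication and mitosis are read beside the secretory genes.

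The assay counted unique molecular identifiers (UMIs), random tags that mark each captured transcript end once. The analysed table held 1068 complete gene rows of a list of 27998 genes (3.81%). GENCODE M21 placed 1062 of these genes, all on chromosome 1 between positions 3205901 and 135313778 (GRCm38). The gonadotropin subunit genes Cga, Lhb and Fshb, the GnRH receptor gene Gnrhr and the gonadotrope factor Nr5a1 were not analysed here, so the identity of the cells could be read only from chromosome 1 genes. The analysed genes held 1126320 UMIs in the vehicle cells. A cell held between 90 and 1649 of them, with a median of 543.5 and an interquartile range of 422 to 690. A median of 159 analysed genes was found per cell, with a range of 42 to 257. All levels below are UMIs summed over the cells and scaled to counts per 1000000 UMIs (CPM) of these analysed genes. At that scale 1 UMI per cell corresponds to 1769 CPM, and 0 UMIs allow a level of up to 2.66 CPM, which is 3 counts of the total. Intervals are 95% intervals, exact Poisson for levels and Clopper-Pearson for shares of cells, and cover counting error only.

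The 4 genes given as markers of the line were all found at high or moderate levels. They were chosen with earlier results of these data known, so their being found is not a separate result. Scg2 encodes secretogranin II, a granin of the dense-core granule. It lies on the minus strand at chr1:79434669-79440120, and it gave 78958 UMIs, or 70103 CPM (69615 to 70593). Every vehicle cell held Scg2, with a lowest count of 1, a median of 34 and a highest count of 221 UMIs. Igfbp2 encodes a secreted protein that binds insulin-like growth factors. Its gene at chr1:72824503-72852474 on the plus strand gave 36708 UMIs, or 32591 CPM (32259 to 32926). Its counts ran from 0 to 105 UMIs per cell around a median of 16, and 99.9% of cells held it.

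Cntnap5a, a member of the contactin-associated family of neuronal adhesion proteins, spans chr1:115684756-116587323 on the plus strand. It gave 21387 UMIs, or 18988 CPM (18735 to 19245), with 0 to 67 UMIs per cell around a median of 9. Inha encodes the inhibin alpha subunit, lies on the plus strand at chr1:75507077-75510366 and was the least abundant of the 4. It gave 2024 UMIs, or 1797 CPM (1720 to 1877), with 0 to 16 UMIs per cell and a median of 0. At least 1 Inha UMI was found in 49.4% of cells (47.2 to 51.6%). The 4 levels were therefore clearly ordered, each interval lying apart from the next, and Cntnap5a gave 10.6 times the UMIs of Inha.

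The histograms of the marker genes set these counts against Poisson counting at the UMI total of each cell. Cntnap5a was found in 95.3% of cells (94.3 to 96.2%), where counting alone would give 99.5%. Inha was found in 49.4% where counting would give 60.8%. Both genes thus had more empty cells and longer upper tails than counting at one shared level gives. The library holds no cell type that lacks these genes, so the part that free RNA had in the shares was not measured.

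**Figure D1:**
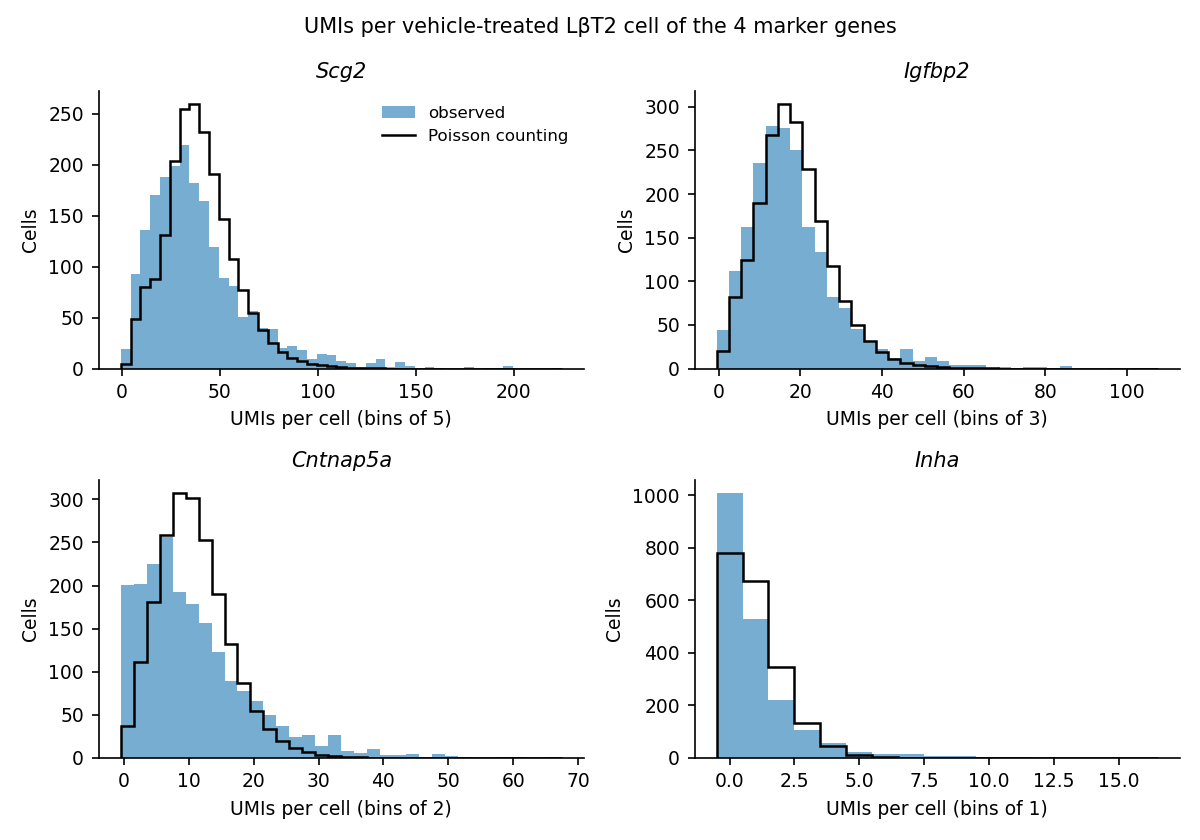
UMIs per cell of Scg2, Igfbp2, Cntnap5a and Inha (x axis, UMIs in bins of the stated width; y axis, number of cells) in the 1992 vehicle-treated cells, with bars for observed cells and a black line for Poisson counting at the UMI total of each cell. In all 4 panels the bars are wider than the line, and for Inha the cells at 0 exceed it, with 49.4% of cells holding the gene against 60.8% under counting.

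The upstream sequence of Scg2 is shown because it carries the palindromic cAMP response element TGACGTCA, the site for which CREB factors are named. The RefSeq table of GRCm38.p6 promoter windows matched 680 of the analysed genes. The element was searched in the 250 bases upstream of each start, where a match on one strand is also a match on the other. It was found at 16 genes (2.35%) and in 508 of all 32817 mouse windows of that length (1.55%). Those 16 genes shared 14 sites, since 2 sites each lie between a divergent pair of genes. The windows below are read 5′ to 3′ on the strand of the gene, with the element in capitals and 10 bases on either side.
Scg2, chr1:79440077-79440104, minus strand: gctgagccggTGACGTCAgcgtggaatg
Ndufa10, chr1:92473808-92473835, minus strand: cactcagtggTGACGTCAtggcagcgcg
Fam174a, chr1:95313547-95313574, plus strand: ctcgaacctcTGACGTCActgagcgcag
Btg2, chr1:134079304-134079331, minus strand: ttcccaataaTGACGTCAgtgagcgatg
Zap70, chr1:36761770-36761797, plus strand: tttgttgcttTGACGTCAacttcaaaca

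The Scg2 element began at position -68 from the RefSeq start. GENCODE M21 places the 5′ end of the gene 94 bases further upstream, so by that annotation the element lies inside the transcribed region. Of the 16 genes with the element, 12 had a UMI, 11 averaged 0.1 UMI per cell or more and 4 had 0 UMIs. Over all analysed genes the shares were 58.1% with a UMI, 32.2% at 0.1 and 41.9% at 0. Protein-coding genes, which make up 14 of the 16, had shares of 72.0% with a UMI and 46.5% at 0.1. With 16 genes nothing was read from the differences. Their levels ran from 70103 CPM for Scg2 through 5588 CPM for the respiratory subunit gene Ndufa10 and 931 CPM for the antiproliferative gene Btg2 to 0 UMIs for the T cell kinase gene Zap70. A match is a run of letters and was not tested as a binding site.

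The windows upstream of the most abundant analysed gene and of the next most abundant marker after Scg2 are shown for contrast. Neither holds the searched letters, which says only that the element is not in these 250 bases.
Rpl37a, chr1:72711010-72711259, plus strand: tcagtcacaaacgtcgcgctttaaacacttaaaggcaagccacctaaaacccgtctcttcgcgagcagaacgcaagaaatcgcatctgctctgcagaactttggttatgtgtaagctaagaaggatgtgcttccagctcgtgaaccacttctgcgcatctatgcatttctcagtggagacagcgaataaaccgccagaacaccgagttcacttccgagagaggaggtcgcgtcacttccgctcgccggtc
Igfbp2, chr1:72824230-72824479, plus strand: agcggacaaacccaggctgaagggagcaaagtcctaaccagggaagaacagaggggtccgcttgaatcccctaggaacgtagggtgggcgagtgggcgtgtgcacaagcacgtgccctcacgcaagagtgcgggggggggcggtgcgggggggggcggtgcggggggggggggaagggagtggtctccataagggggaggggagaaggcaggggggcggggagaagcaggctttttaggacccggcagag

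Among the analysed genes, the UMIs were concentrated in few. The ribosomal protein gene Rpl37a gave 112064 UMIs (99496 CPM), Ptma, which encodes the chromatin-associated acidic protein prothymosin alpha, gave 80161 UMIs (71171 CPM), and Scg2 followed. These 3 genes held 24.1% of all analysed UMIs and were the only ones found in every cell. The 10 most abundant genes held 43.0%, the 20 most abundant 54.0% and the 100 most abundant 81.4%. A secretory granule gene thus ranked with the genes of protein synthesis and chromatin among the analysed genes.

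Within single cells the leading gene differed. Rpl37a was the most abundant analysed gene in 1215 cells (61.0%), Scg2 in 398 cells (19.98%), Ptma in 340 cells (17.1%) and Igfbp2 in 22 cells, and 41 cells had a tie for first place. The share of Scg2 in a cell's UMIs had a median of 6.42%, with 2.63% at the 5th and 12.9% at the 95th percentile of cells. The share of Rpl37a ranged less in proportion, with a median of 9.56% and values of 5.73% and 15.0% at the same percentiles.

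The genes next in order included genes of protein synthesis and of secreted or surface proteins. Rpl31 gave 43034 CPM and Rpl7 36359 CPM, both ribosomal proteins, and Cox5b, a subunit of cytochrome c oxidase, gave 30128 CPM. The spliceosome gene Snrpe stood at 14411 CPM and Myeov2, an older symbol of the COP9 signalosome subunit gene Cops9, at 14056 CPM. Igfbp5, another IGF-binding protein, reached 13265 CPM. It lies close to Igfbp2 and Rpl37a, at chr1:72857932-72874884 on the minus strand. Nucleolin, Ncl, stood at 12450 CPM, Serpine2, a secreted inhibitor of serine proteases, at 11539 CPM and Eef1b2, an elongation factor, at 11109 CPM. Genes such as Rpl37a, Rpl31, Rpl7, Ptma and Snrpe have processed copies elsewhere in the genome, so reads could be lost or split between copies and their levels are uncertain in that respect. Rpl31 overlaps Tbc1d8 and Eef1b2 overlaps Ndufs1 on opposite strands, and the use of strand in counting is not given in the sources used here.

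**Figure D2:**
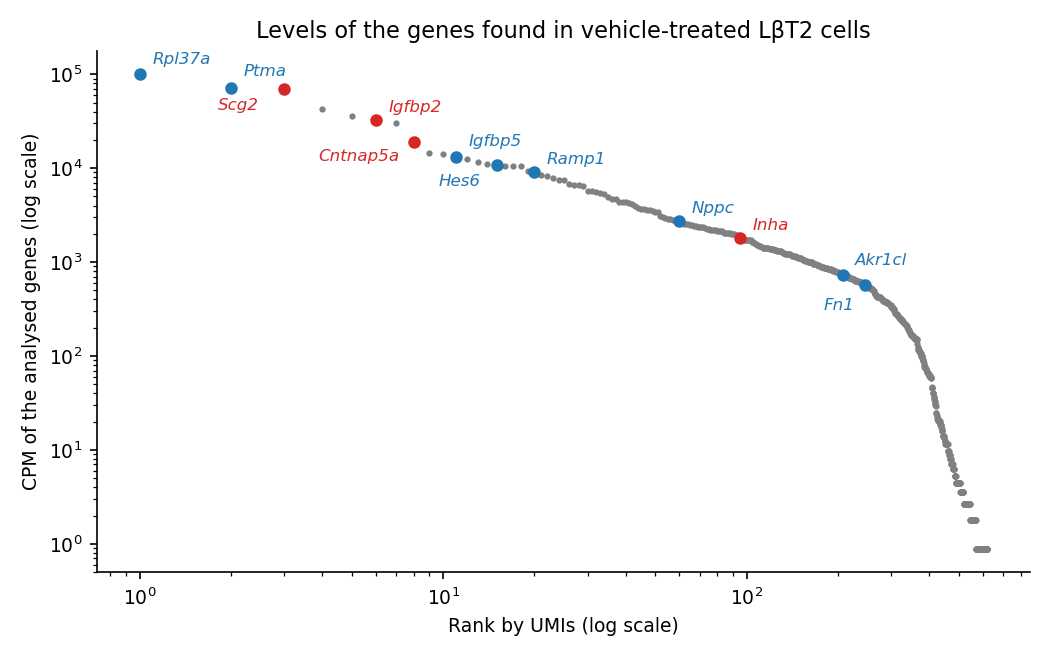
Level of each of the 621 genes with a UMI in vehicle-treated LβT2 cells (y axis, CPM of the analysed genes, log scale) by rank (x axis, log scale), with the 4 marker genes in red and other described genes in blue. Scg2 sits at rank 3 with 70103 CPM and Inha at rank 95 with 1797 CPM.

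The analysed UMIs were unevenly spread along the chromosome. The 119 analysed genes starting between positions 70000001 and 80000000, the stretch that holds Rpl37a, Igfbp2, Igfbp5, Scg2, Inha and Serpine2, gave 28.5% of all UMIs, and 87 of them had at least 1. The 34 genes between 100000001 and 110000000 gave 0.653%, and 12 of them had a UMI.

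Across all analysed genes, 621 of 1068 (58.1%) had at least 1 UMI and 344 (32.2%) averaged 0.1 UMI per cell or more. The remaining 447 genes had 0 UMIs in all 1992 cells, and 103 genes had only 1 to 3. Protein-coding genes, 731 in number, held 99.4% of the UMIs, and 526 of them had a UMI. Long intergenic RNAs were found for 54 of 211 genes and antisense RNAs for 41 of 120. The most abundant gene that does not code for protein was Snhg6, a host gene of small nucleolar RNAs, at 2312 CPM. It overlaps Mcmdc2 on the other strand.

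Genes of the secretory granule and of vesicle traffic were present at graded levels. Of 14 analysed members, 13 (92.9%) had a UMI, beside 58.1% of all analysed genes and 72.0% of protein-coding genes. A mean of 0.1 UMI per cell or more was reached by 8 (57.1%), beside 32.2% and 46.5%. Scg2 held 78958 of the 88001 UMIs of the list. Far below it stood Ecel1, an endothelin-converting enzyme-like peptidase, at 2466 CPM, the lysosomal and vesicle GTPase gene Arl8a at 1478 CPM and the proton pump subunit gene Atp6v1h at 1173 CPM. Ptprn, the dense-core granule protein IA-2, gave 813 CPM and Kif1a, the motor that carries granules, 1013 CPM. Resp18, an endocrine granule protein, had 2 UMIs in 1992 cells, Mlph had 2 and Syt2, a calcium sensor of release, had 8. Rims1, a scaffold of the synaptic active zone, had 0. The analysed granule genes were therefore not found as a block, since Scg2 and Resp18, both granule cargo, stood at opposite ends of the list.

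The inhibin and activin group was represented by both of its analysed subunits. Inhbb, the beta B subunit that pairs with inhibin alpha or with itself, gave 4001 UMIs, or 3552 CPM (3443 to 3664), above the 1797 CPM of Inha. Its counts ran from 0 to 17 UMIs per cell around a median of 2, and 76.4% of cells held it. The BMP type 2 receptor Bmpr2 stood at 847 CPM and the adaptor Tgfbrap1 at 567 CPM. Myostatin, Mstn, had 2 UMIs.

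Among the 8 analysed hormone and neuropeptide ligands, 1 was above 0.1 UMI per cell (12.5%, beside 32.2% of all analysed genes and 46.5% of protein-coding genes). Nppc, which encodes C-type natriuretic peptide, gave 3057 UMIs, or 2714 CPM (2619 to 2812), with a median of 1 and a highest count of 20 UMIs per cell, and 66.8% of cells held it. Kiss1, Nms, Prlh and Ren1, which encode kisspeptin, neuromedin S, prolactin-releasing hormone and renin, had 0 UMIs, so 4 of 8 had a UMI, beside 58.1% of all analysed genes and 72.0% of protein-coding genes. The morphogens Wnt6 and Ihh had 95 and 10 UMIs, and Wnt10a had 2.

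Among receptor genes, few were abundant. Ramp1, the accessory protein that turns the calcitonin receptor-like receptor into a receptor for calcitonin gene-related peptide, gave 10245 UMIs (9096 CPM), with 0 to 24 UMIs per cell around a median of 5. Adipor1, an adiponectin receptor, gave 4722 CPM and was found in 88.7% of cells. The adenosine receptor Adora1 stood at 275 CPM and Gpr39 at 154 CPM. Of 16 analysed receptors, 3 reached a mean of 0.1 UMI per cell (18.8%, beside 32.2% of all genes and 46.5% of protein-coding genes), and 11 (68.8%) had a UMI, beside 58.1% and 72.0%. The 5 with 0 UMIs were the vasopressin receptor Avpr1b, which in the pituitary marks corticotropes, the secretin receptor Sctr, the neuromedin receptor Nmur1, the serotonin receptor Htr2b and the bile acid receptor Gpbar1. Htr2b lies within Psmd1 on the other strand.

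Igfbp2 and Igfbp5 were accompanied by low levels of the other analysed genes of insulin-like growth factor signalling. The phosphatase gene Phlpp1 gave 401 CPM, the kinase gene Pik3c2b 247 CPM and the receptor substrate Irs1 59.5 CPM. These 2 binding proteins held 51649 of the 52472 UMIs of the 7 analysed genes.

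Early response and CREB-linked genes were mostly present without stimulation, with 11 of 12 above 0.1 UMI per cell, beside 32.2% of all analysed genes and 46.5% of protein-coding genes. Klf7, a zinc finger factor, led at 3643 CPM. The kinase gene Mapkapk2 followed at 1403 CPM, Creb1 itself at 1132 CPM and Btg2 at 931 CPM. Neurl3, at 13 UMIs, was the one member below the limit.

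Neuronal adhesion and excitability genes were a mixed group, of which 14 of 17 had a UMI and 8 (47.1%) reached 0.1 UMI per cell. The shares were 58.1% and 32.2% over all analysed genes and 72.0% and 46.5% over protein-coding genes, so the share at 0.1 was that of coding genes. After Cntnap5a came Dpp10, an auxiliary subunit of potassium channels, at 3796 CPM, the axonal adhesion protein Nfasc at 2569 CPM and the microtubule protein Map2 at 2017 CPM. Cntnap5b, the analysed paralogue of Cntnap5a, had 0 UMIs, as did Adam23 and Kcnq5. With 3 counts over the library taken as the limit for Cntnap5b, Cntnap5a was at least 7129-fold higher.

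Developmental transcription factors ranged from abundant to 0. Hes6, a bHLH factor of neural and endocrine differentiation, gave 12059 UMIs (10707 CPM) and was found in 97.4% of cells, with a median of 6 UMIs. Eya1, a transcriptional cofactor with phosphatase activity, stood at 1381 CPM, Fev, an ETS factor of serotonergic neurons, at 1010 CPM and St18 at 669 CPM. Of 18 analysed members, 10 (55.6%) had a UMI, beside 58.1% of all analysed genes and 72.0% of protein-coding genes. The 8 with 0 UMIs were En1, Gli2, Pax3, Pou3f3, Sox17, Tfap2b, Tfap2d and Twist2. Gbx2 had 1 UMI.

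Several groups that serve every dividing cell were found in full. All 19 mitochondrial genes, all 12 ubiquitin and COP9 signalosome genes, all 13 replication and mitosis genes, all 10 splicing and chromatin genes, all 8 ribosome biogenesis genes and all 6 chaperone genes averaged 0.1 UMI per cell or more, beside 32.2% of all analysed genes and 46.5% of protein-coding genes. Of the 11 ribosomal protein and translation factor genes 10 did so. Among mitochondrial genes, Hspe1, a chaperonin, stood at 10622 CPM, Ndufb3, a subunit of complex I, at 9279 CPM and the ribosomal protein gene Mrpl30 at 7564 CPM. Among the ubiquitin-related genes, the elongin C gene Tceb1 stood at 7810 CPM, the proteasome subunit gene Psmd1 at 2984 CPM and the COP9 signalosome gene Cops8 at 2439 CPM. Hspe1 overlaps its partner Hspd1, at 4745 CPM, on the opposite strand, and both are also counted on the chaperone list. The other leading chaperone genes were Pdcl3 at 1956 CPM and Bag2 at 1318 CPM.

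Genes of the cell cycle were abundant. Nucks1, a chromatin protein, gave 10525 CPM, and Dtymk, which makes thymidine diphosphate for DNA synthesis, gave 7404 CPM. Hjurp, which places the centromeric histone, gave 6598 CPM. The replicative helicase subunits Mcm3 and Mcm6 stood at 4224 CPM (4105 to 4346) and 4160 CPM (4041 to 4280), intervals that overlap. Among cell death genes, Mdm4, an inhibitor of p53, was at 1494 CPM, Bcl2 at 1108 CPM, Cflar at 947 CPM and Casp8 at 368 CPM.

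Metabolic genes were led by Dbi, the acyl-CoA and diazepam binding protein, at 10658 CPM. Idh1 followed at 1777 CPM and Insig2, a regulator of sterol synthesis, at 1426 CPM. Of 14 members, 11 (78.6%) had a UMI, beside 58.1% of all analysed genes and 72.0% of protein-coding genes. The 3 with 0 UMIs were Cps1 of the liver urea cycle, Cyp27a1 of bile acid synthesis and Aox1.

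Most markers of other cell types were at low levels or 0, but the lists differed in how many members had a UMI. Of 17 analysed immune markers, 12 had 0 UMIs and 5 (29.4%) had at least 1, beside 58.1% of all analysed genes and 72.0% of protein-coding genes with a UMI. Those at 0 were the T cell genes Cd28, Ctla4, Icos, Pdcd1 and Zap70, the interleukin receptor genes Il1r1, Il1r2, Il1rl1 and Il18r1, the signalling gene Stat4, the macrophage gene Marco and the cytokine gene Il10. The 5 others summed to 55 UMIs, or 0.00488% of the total, with 23 for Inpp5d, 21 for Lax1, 7 for Cxcr2 and 3 for Ptpn7. The collagen genes Col3a1 and Col5a2 and the matrix genes Fmod and Prelp had 0 UMIs and Col6a3 had 1, while Serpine2 and Fn1, on the same fibroblast list, stood at 11539 and 568 CPM. The 8 muscle markers summed to 237 UMIs, of which Speg gave 195, Des 18, Chrnd 13 and Myl1 5, and Myog had 0. The 6 markers of gut, kidney and surface epithelium summed to 1030 UMIs, of which the epithelial ETS factor Elf3 gave 1013, while Alpi had 7, Vil1, the gut villus protein, 5 and Lct 3. At least 1 UMI was found for 7 of the 8 muscle markers (87.5%) and all 6 of these epithelial markers (100%), above the 58.1% and 72.0%. On the fibroblast list the count was 3 of 8 (37.5%), below both. Of 8 germ cell and lens markers, 2 (25%) had a UMI, also below both shares. The 6 with 0 UMIs were the germ cell gene Boll and the crystallin genes Cryga, Crygb, Crygc, Crygd and Crygf. The exceptions were Tnp1, a transition protein of sperm nuclei, with 65 UMIs in 3.01% of cells, and the lens crystallin Cryge with 37 UMIs in 1.76% of cells. Tnp1 overlaps 1700027A15Rik on the other strand.

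**Figure D3:**
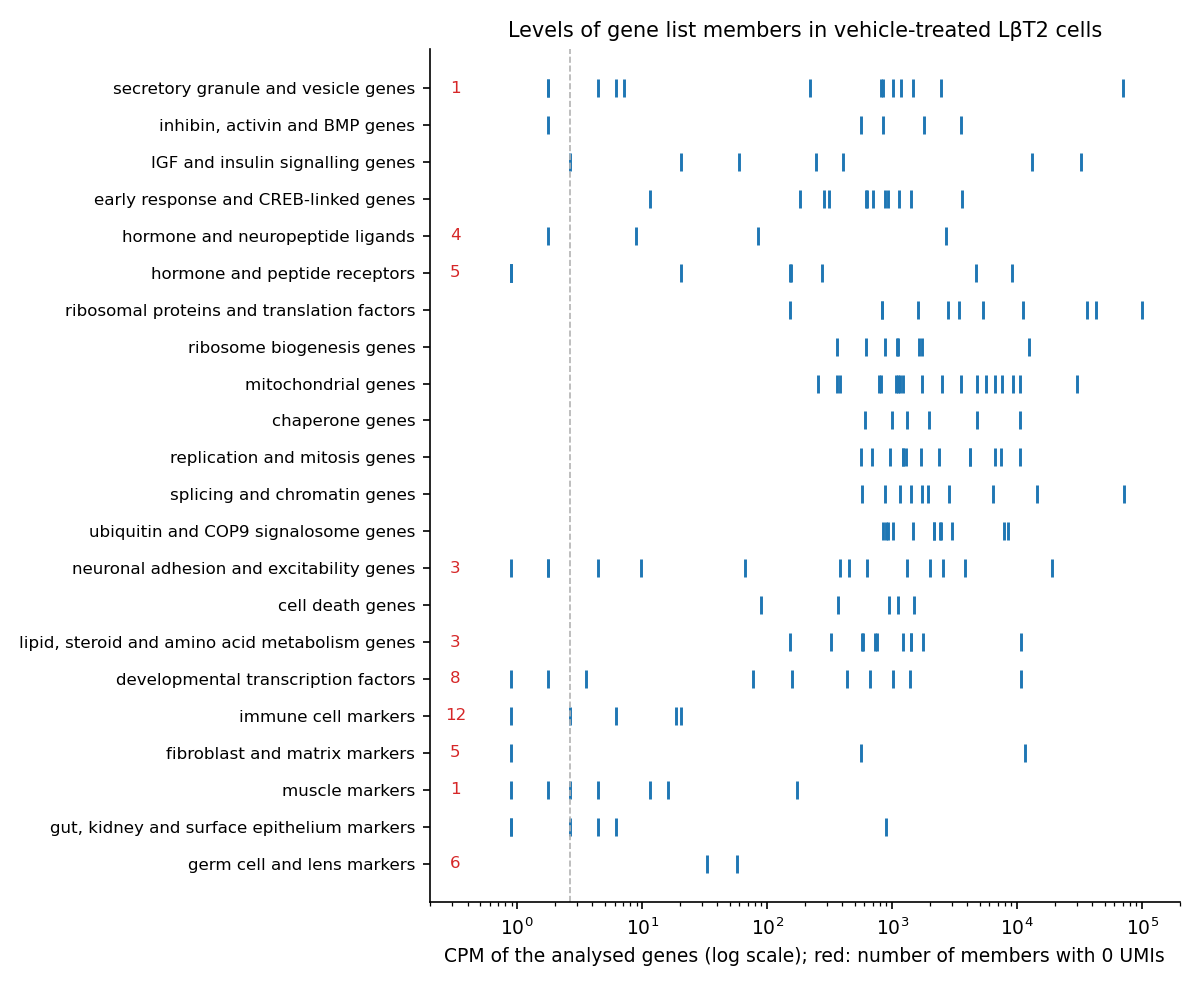
Levels of the members of 22 gene lists in vehicle-treated LβT2 cells (x axis, CPM of the analysed genes, log scale; each tick is 1 gene; red numbers, members with 0 UMIs; dashed line, 2.66 CPM, the level that a count of 0 allows). The mitochondrial, ribosome biogenesis and ubiquitin lists have no member at 0, while 12 immune markers and 8 developmental transcription factors are at 0.

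Neighbouring genes with 0 UMIs formed runs along the chromosome. Of all analysed genes 41.9% had 0 UMIs, and whether the runs are longer than that share gives was not tested. The longest held 16 analysed genes from Cd28 to Gm29084, at chr1:60716800-62642284, with Ctla4 and Icos inside it, and 4 of the 16 code for protein. A run of 13 from Gm28784 to Gm28340, with 7 protein-coding genes, came next. The runs below were picked for their gene families. A run of 12 genes at chr1:106861173-107610484 held Serpinb5 to Serpinb8, a cluster of clade B serpins. A run of 10 at chr1:88055388-88220002 was the Ugt1a cluster of glucuronosyltransferases with Dnajb3. Another run of 10 at chr1:40225080-40785343 began with the interleukin receptor genes Il1r1, Il1rl2, Il1rl1, Il18r1 and Il18rap. A run of 9 at chr1:92475925-92623412 held olfactory receptor genes and 1700054K02Rik. In the Ugt1a and Serpinb3 families near-identical copies share sequence, so reads that fit several copies may not have been counted.

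Variation between the vehicle cells was read as the squared coefficient of variation (CV) of each gene over the value that Poisson counting gives at the UMI total of each cell. Among the 344 genes that averaged 0.1 UMI per cell or more, this ratio had a median of 1.07. Only 96 genes averaged 1 UMI per cell or more. At low means counting makes up most of the variation, so a ratio near 1 does not show that a gene varies little. The ratio reached 1.5 in 20 genes (5.81%), and the 4 marker genes were all among them. The markers were chosen with earlier results of these data known, so their place among the 20 is no separate support. With 1 library the ratio is a size and not a test.

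Akr1cl, an aldo-keto reductase, had the highest ratio in the unthinned counts, 4.46. It was found in 18.5% of cells (16.8 to 20.3%), where counting would give 32.7%, and 1 cell held 30 UMIs. The tenth of cells with the most Akr1cl held 79.2% of its UMIs. For Utp14b, which overlaps Acsl3 and is the gene nearest to it in mean level, that share was 48.5%, the highest count was 5 and 31.3% of cells held it. Akr1cl was thus carried by a minority of cells, while a gene of like mean was spread nearly as counting gives.

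Igfbp5 followed with a ratio of 3.96. Its counts ran from 0 to 149 UMIs per cell around a median of 5, and 92.8% of cells held it where counting would give 98.8%. Myeov2, at a like mean, had a ratio of 1.11 and a highest count of 27. The ratio was 2.63 for Cntnap5a, 2.40 for Scg2, 2.18 for Inha and 1.88 for Igfbp2. Tmem237, at the mean level of Inha, had a ratio of 1.03 and a highest count of 6 where Inha reached 16. The secreted products Serpine2 and Nppc had ratios of 1.80 and 1.71, the matrix protein Fn1 1.92 and the peptidase Ecel1 1.73.

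Another set among the 20 genes belonged to the cell cycle. Of 13 analysed replication and mitosis genes, 6 had a ratio of at least 1.5: Nucks1 at 2.17, Hjurp at 1.81, Mcm3 at 1.77, Mcm6 at 1.69, Dtymk at 1.61 and Sgol2a, which protects centromeric cohesion, at 1.60. Btg2 stood at 1.95, Ptma at 1.58, Rpl37a at 1.52 and Dbi at 1.504. None of the 19 mitochondrial or 12 ubiquitin-related genes reached 1.5, and their median ratios were 1.05 and 1.02. Those counts and medians are near the 5.81% and 1.07 over all genes examined. Just below the limit stood Bcl2 at 1.48, Mdm4 at 1.47 and Khdrbs2 at 1.43. The limit therefore falls within a continuous range of values and does not separate classes of genes.

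**Figure D4:**
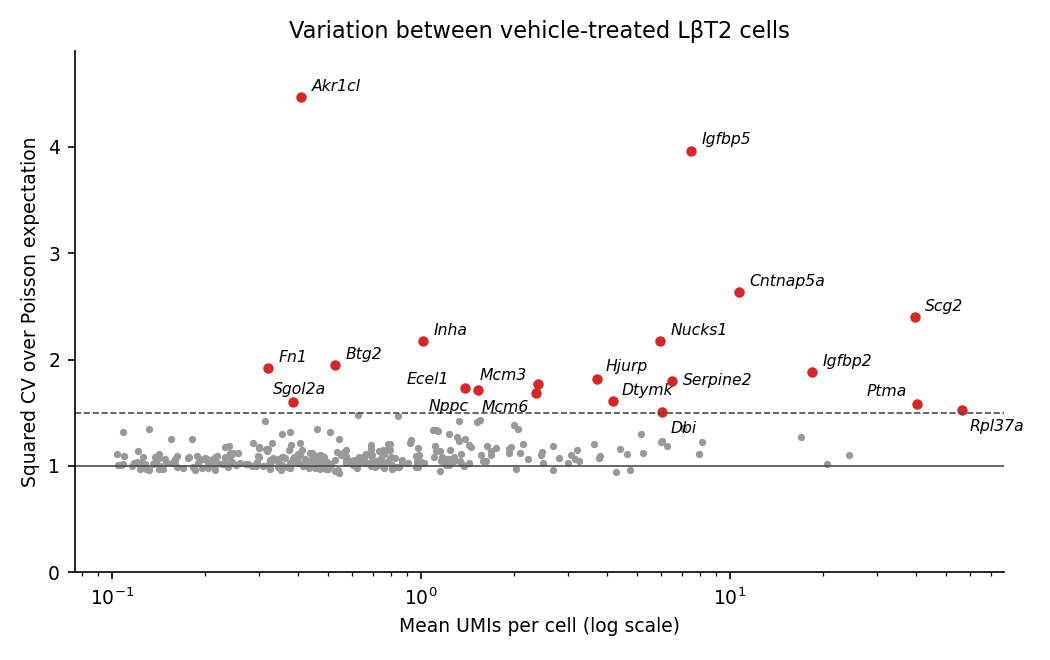
Squared coefficient of variation over its Poisson expectation (y axis) against mean UMIs per cell (x axis, log scale) for 344 genes in vehicle-treated LβT2 cells, with a solid line at 1, a dashed line at 1.5 and the 20 genes past it in red. Akr1cl at 4.46 and Igfbp5 at 3.96 stand above the rest, and most genes lie near 1.

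The ratio depended on how depth was treated. When each cell was thinned to 300 UMIs, which left out 219 shallower cells, 13 of the 20 genes kept a ratio of 1.5, and Btg2, Dbi, Dtymk, Ecel1, Fn1, Mcm3 and Sgol2a fell below it. The thinned ratios were 4.55 for Scg2, 4.47 for Igfbp5, 3.29 for Akr1cl, 3.03 for Igfbp2, 2.58 for Cntnap5a and 1.69 for Inha. Ptma at 2.79 and Rpl37a at 2.60 stood above Cntnap5a, and Serpine2 at 2.00 and Nucks1 at 1.71 above Inha. The order turned, with Scg2 and Igfbp5 above Akr1cl. Inha was then found in 35.1% of cells and Cntnap5a in 93.7%.

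Covariation was measured as Pearson's r across the 1773 thinned cells, which share 1 library, for 58996 pairs of the 344 genes. Almost all values were near 0, with -0.065 at the 1st and 0.067 at the 99th percentile. At this depth 7 pairs reached 0.2. They were Mcm3 with Mcm6 (0.293), Ptma with Dtymk (0.284), Eef1b2 with Rpl37a (0.235), Rpl31 with Rpl37a (0.221), Igfbp2 with Tmem37 (0.219), Hjurp with Nucks1 (0.208) and Ncl with Ptma (0.204). Next came Ptma with Nucks1 (0.198), Rpl7 with Rpl37a (0.196) and Ptma with Hjurp (0.195). On the scale log2(thinned count + 1), Igfbp2 with Tmem37 fell to 0.166 and Ncl with Ptma to 0.192, both under 0.2. Mcm3 and Mcm6 are subunits of one helicase, and Eef1b2, Rpl31 and Rpl37a are genes of translation. Thinned totals are fixed, which by itself pushes abundant genes toward negative values of r, and the size of that effect was not tested. The lowest were Rpl37a with Scg2 (-0.295), Rpl31 with Scg2 (-0.231), Igfbp2 with Cntnap5a (-0.229), Igfbp2 with Hjurp (-0.219) and Igfbp5 with Ptma (-0.206).

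For the markers the most similar genes were only weakly so. Some of the genes, such as Inha, Tmem37 and St18, had sparse counts, and no value here was tested or is read as a finding. The highest r of Scg2 was 0.10 with Serpine2, before St18 and Farsb, and that of Inha was 0.096 with Ptma, before Obsl1 and Mcm3. The highest r of Cntnap5a was 0.16 with Rpl37a, followed by Fn1 and Mgat5 at 0.12. For Igfbp2, Elf3 at 0.18 and Dbi at 0.16 came after Tmem37, which encodes a transmembrane protein. Among Scg2, Igfbp2, Inha and Cntnap5a themselves r ran from -0.229 to 0.059.

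The cell cycle genes were described further by grouping the thinned cells by their count of Hjurp or of Mcm6, groups chosen after the correlations were seen. Sgol2a had a mean of 0.132 UMI (0.0996 to 0.172) in the 416 cells without Hjurp and of 0.425 (0.354 to 0.505) in the 299 cells with 4 or more. Nucks1 went from 2.54 (2.39 to 2.70) to 4 (3.78 to 4.23) and Ube2t, a ubiquitin-conjugating enzyme of DNA repair, from 0.481 (0.416 to 0.552) to 0.933 (0.827 to 1.05) between the same cells. Mcm6 was at 1.18 (1.07 to 1.28) in the cells without Hjurp, 1.28 (1.21 to 1.35) in those with 1 to 3 and 1.05 (0.940 to 1.18) in those with 4 or more. Mcm3 was at 1.09 (0.993 to 1.197) in the cells without Hjurp, 1.304 (1.24 to 1.38) in those with 1 to 3 and 1.23 (1.11 to 1.37) in those with 4 or more. The values of Nucks1 and Sgol2a restate their correlations with Hjurp as levels, and the intervals pool cells of 1 library. These intervals cover counting only and are too narrow for genes that vary above it, so no difference between groups is read from them.

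Grouping by Mcm6 gave another order. Mcm3 had a mean of 0.839 UMI (0.770 to 0.912) in the 658 cells without Mcm6, 1.404 (1.33 to 1.48) in the 994 cells with 1 to 3 and 2.11 (1.86 to 2.38) in the 121 cells with 4 or more. Nucks1 went the other way, from 3.40 (3.26 to 3.55) to 2.42 (2.15 to 2.72), and Sgol2a from 0.252 (0.215 to 0.294) to 0.0992 (0.0512 to 0.173). Hjurp was at 1.96 (1.86 to 2.07) and 1.76 (1.53 to 2.01), intervals that overlap. These levels, too, describe correlations already seen, in totals that thinning fixed.

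The means of Scg2 and Igfbp2 were also lower in cells with 4 or more Hjurp UMIs than in cells without Hjurp. Both genes vary above counting, so the intervals given for them are too narrow. Scg2 had a mean of 22.3 UMIs (21.8 to 22.8) in thinned cells without Hjurp and 18.5 (17.99 to 19.0) in cells with 4 or more. Igfbp2 went from 11.6 (11.2 to 11.9) to 7.87 (7.56 to 8.20) between the same cells. Across the groups by Mcm6, Scg2 was at 21.8 (21.4 to 22.1), 20.1 (19.8 to 20.3) and 20.5 (19.7 to 21.3), and Igfbp2 was not examined. In totals fixed by thinning a higher share of some genes lowers the share of the others, and the size of that effect was not tested.

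**Figure D5:**
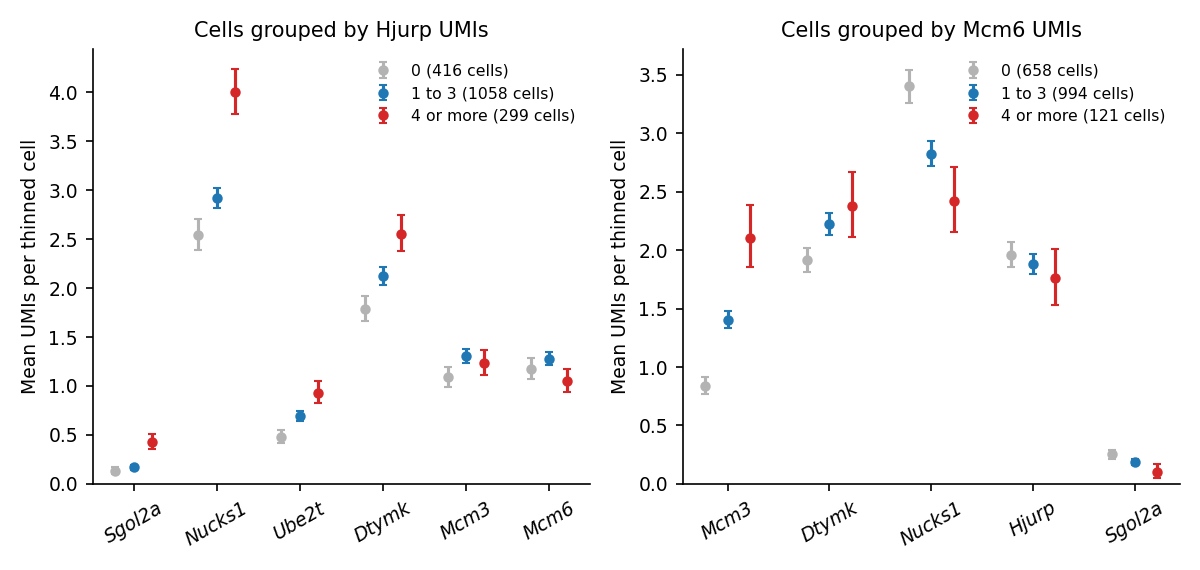
Mean UMIs per cell thinned to 300 UMIs (y axis) of cell cycle genes in vehicle-treated LβT2 cells grouped by their Hjurp count (left) or Mcm6 count (right), with points for means and bars for 95% Poisson intervals of counting. Sgol2a and Nucks1 are higher in cells with 4 or more Hjurp UMIs and lower in cells with 4 or more Mcm6 UMIs.

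The cells with few UMIs resembled the rest in composition. The 219 cells under 300 UMIs were 11.0% of the cells. Among the 176 genes with at least 1000 UMIs, the log2 ratio of their level in those cells to that in the others ran from -0.65 for Atg4b to 0.49 for Gdap1.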

How the data were processed

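Single cells were captured in gel-bead emulsions and sequenced from the transcript end, in 1 vehicle and 1 GnRH library. The authors deposited raw UMI counts per gene and cell, made with Cell Ranger 1.3 on mm10 per the submitters' processing notes, with no normalization. The annotation and the use of strand in counting are not given in the sources used here. Vehicle cells were found by the prefix of their column, and symbols were joined by row identifier. Only the 1068 complete gene rows were used, and 1 incomplete row was left out. Totals are therefore of the analysed genes and not library depth.

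With 1 library there was no test. Counts were summed over cells and scaled to CPM. The expectation of the CV took each gene's share of all UMIs and the UMI total of each cell. Correlations used cells thinned without replacement to 300 UMIs (seed 1). The library sizes give the precision stated with each interval. No doublet caller was run, and leaving out the 5% of cells with the most UMIs was an alternative. The table names cells by number and not by barcode, so barcodes shared between libraries could not be counted. Positions came from GENCODE M21 and promoters from RefSeq GRCm38.p6. Promoter entries matched 76.3% of protein-coding genes, under the 80% needed, so a comparison of base composition by abundance is void and not given. Scripts ran in Python 3.11.15 with numpy 2.4.6, scipy 1.17.1 and pandas 2.3.3 and were tested on simulated data.

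Named genes were the 4 markers, the 20 genes with the most UMIs, the 15 with the largest CV ratio, the top 4 and zero members of each list, and the pairs with the highest and lowest r. The genes of like mean, the groups by Hjurp and Mcm6, the runs of zero genes, the motif search, the remaining genes past the ratio of 1.5 and other list members were chosen after their values were seen. The cells, markers and gene lists were chosen with earlier results of these data known. Values of some list members are not reported here.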

Additional observations from a re-analysis of the deposited data

How the results depend on the processing

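Leaving out the 5% of cells with the most UMIs moved the median to 531 UMIs per cell and the share of the 10 most abundant genes to 42.881%, and averaging that share over cells gave 42.833%. Without the cells under 300 UMIs the medians were 572 UMIs and 163 genes per cell. Thinning to 300 UMIs lowered the share of cells with Inha to 35.138% and with Cntnap5a to 93.739%, as fewer UMIs were kept. The count of genes past the variation ratio of 1.5 rose from 20 to 67 with a plain Poisson expectation that ignores cell totals and fell to 13 of 300 genes after thinning. It stayed between 17 and 21 under the other limits on mean level and the other choices of cells. Pairs with r of at least 0.2 rose from 7 to 22 when unthinned shares of all 1992 cells were used, which also took back the 219 cells under 300 UMIs. No sign reversed under these alternatives. The promoter comparison is void because too few genes had an entry, so neither it nor its alternative abundance class is reported. No paired analysis was possible because only 1 library was made per treatment and no result comes from a test. Depth limits the reading of low genes, since 0 UMIs allow up to 2.66 CPM.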

Other observations

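Regulators of splicing and chromatin were present across the list, without a member near 0. The splicing factor Sf3b1 gave 6409 CPM and was found in 92.1% of the vehicle cells. Phf3, a PHD finger protein that binds RNA polymerase II, stood at 2872 CPM, the histone demethylase Kdm5b at 1935 CPM, the splicing kinase Clk1 at 1734 CPM and the deacetylase Hdac4 at 1410 CPM. Kdm5b had a variation ratio of 1.34 and Clk1 of 0.99.

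Translation beyond the ribosomal proteins was covered by the initiation factor Eif5b at 5316 CPM, the initiation regulator Bzw1 at 3402 CPM and the cap-binding protein Eif4e2 at 2814 CPM. The mitochondrial methionyl-tRNA synthetase Mars2, at 151 CPM, was the only one of 11 analysed members of this list under 0.1 UMI per cell. The ribosome biogenesis genes after Ncl ran from Ddx18 at 1747 CPM (1671 to 1826) and Nop58 at 1648 CPM (1574 to 1725), whose intervals overlap, through Imp4 at 1121 CPM to Wdr75 at 360 CPM.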
